A study of Mus musculus with 2 samples.

Results

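The genes described here are the KEAP1-NRF2 regulatory group: Keap1, Nfe2l2, Nfe2l1, Cul3, Mafg, Mafk, Maff, Bach1 and Sqstm1. They were taken by name from the expression table of a mouse esophagus study, where all 9 were found among 18595 genes, and they are followed through its 19 clusters. Cells of the muscle-stripped esophagus were profiled with droplet-based 3′ RNA sequencing, in which each captured transcript carries a unique molecular identifier (UMI). The Keap1 cKO library came from K5CreERT2::Keap1 floxB/floxB mice, whose tamoxifen-inducible Cre is driven by the promoter of keratin 5, a keratin of basal squamous cells. The Control library came from Keap1 floxB/floxB mice without that Cre, so both genotypes carry the floxB allele, and both are a hybrid of C57BL/6J and BALB/c. The exons that floxB loses, the tamoxifen schedule, the ages and the number of animals behind each library are not stated in these sources. With 1 library for each genotype, no difference between them was tested, and every interval below is a 95% interval for counting error alone.

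KEAP1 is the substrate adaptor of a cullin-RING ubiquitin ligase that is built on CUL3 and RBX1. In unstressed cells it holds NRF2, the product of Nfe2l2, for degradation by the proteasome, and electrophiles or loss of KEAP1 let NRF2 accumulate. NRF2 then pairs with a small MAF protein (MAFG, MAFK or MAFF) on antioxidant response elements and raises genes of glutathione synthesis and detoxification, which in squamous epithelium include barrier-related genes. BACH1 competes for the same sites as a heme-regulated repressor, p62 (Sqstm1) is an autophagy receptor that can draw KEAP1 into autophagosomes, and NRF1 (Nfe2l1) is a related factor known for driving proteasome genes. Much of this control acts on protein, which RNA counts do not measure.

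Since the group's transcription factors bind antioxidant response elements, the promoters of the 9 genes were searched for the core TGACNNNGC on both strands. The promoters are the RefSeq table's windows from 250 bases before to 50 bases after a start site on GRCm38.p6, 15 of them for the 9 genes. The core was present in 4 promoters, 1 each for Nfe2l2 and the 3 small Maf genes, and in 12.4% of all 32851 promoters of the table. The 4 matches lie on the gene's strand for Nfe2l2 and Maff and on the other strand for Mafg and Mafk, and the related element TGACTCA, held by 5.20% of all promoters, was not found in the 15. The stretches are shown because they place the motif beside genes of the same circuit. Each is written 5′ to 3′ on the gene's strand with the core in capitals, and a match describes letters and not a bound site. Start sites are those of the RefSeq table. The location given for Mafk further below is from another annotation and starts at 139791513, so the core lies inside the gene by that start.
Nfe2l2 (chr2:75704885-75704913, minus strand, core starting 240 bases before the start site): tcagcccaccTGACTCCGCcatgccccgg
Mafg (chr11:120633751-120633779, minus strand, core starting 222 bases before): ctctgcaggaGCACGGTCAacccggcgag
Mafk (chr5:139791513-139791541, plus strand, core starting 13 bases before): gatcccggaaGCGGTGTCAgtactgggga
Maff (chr15:79346499-79346527, plus strand, core starting 112 bases before): gggcgtctcaTGACTCTGCcactggaaag

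In total, 2381 cells with 26036522 UMIs came from the Keap1 cKO library and 2472 cells with 30501227 UMIs from the Control library. Values are UMIs summed over the cells of a cluster, given as counts per 1e+06 UMIs (CPM) with an exact Poisson interval, and ratios are log2 of Keap1 cKO CPM over Control CPM with an exact conditional binomial interval. A ratio is given where a gene had at least 20 UMIs over both libraries and the cluster at least 50 cells in each, and a gene at least 1.5-fold apart is counted as higher or lower. The authors annotated clusters 4, 9, 10, 13, 14 and 15 as epithelial, 422 cells in the Keap1 cKO library and 848 in the Control library, with median depths of 5072.5 and 17667 UMIs per cell. Cluster 4 was led by basal keratins, cluster 13 was suprabasal and cluster 9 cornified. S100a8 and S100a9, from the neutrophil marker list but also keratinocyte genes, stood at 21118 and 17216 CPM in Keap1 cKO cells of cluster 9, against 361 and 347 CPM in Control cells. The neutrophil markers Csf3r and Retnlg had 0 UMIs there in both libraries and Cxcr2 had 1 UMI in the Keap1 cKO library. Summed T cell markers were 102 CPM in Keap1 cKO epithelial cells and 12.6 CPM in Control epithelial cells, with all 5 above 0 in both, and their part in the results below was not tested. Cell barcodes found in both libraries numbered 5.

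Over all epithelial cells, 1 of the 9 genes was at least 1.5-fold lower, Keap1, and none was at least 1.5-fold higher. Among all 12638 genes measured there, 15.8% were lower and 17.5% higher by that fold, so the count for the 9 genes is no larger than the background. Without cluster 9 the Keap1 ratio was -0.51 and no longer past 1.5-fold. Sqstm1 came closest on the other side, with 457 UMIs (61.3 CPM) in Keap1 cKO cells and 580 UMIs (42.1 CPM) in Control cells, a log2 ratio of 0.54 (0.36 to 0.72). That ratio passed 1.5-fold without clusters 10 and 14 (0.70), with clusters 4, 9 and 13 weighted equally (0.95) and without the cells above the 98th percentile of UMIs of their library (0.99). It leaned on cluster 9, which held 101 of the Keap1 cKO UMIs and 16 of the Control UMIs. Without cluster 9 the Sqstm1 ratio was below 0.54. The other 7 lay between -0.10 for Maff and 0.26 for Mafk. Among those 7, the interval lay off 0 for Mafg alone, at 0.17 (0.01 to 0.33), and with each cell weighing the same the Mafg value was -0.12. The median of the 9 ratios was 0.12, against -0.02 over all genes. The sums cover clusters that differed in opposite directions, most of all for Maff and Nfe2l1.

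**Figure D1:**
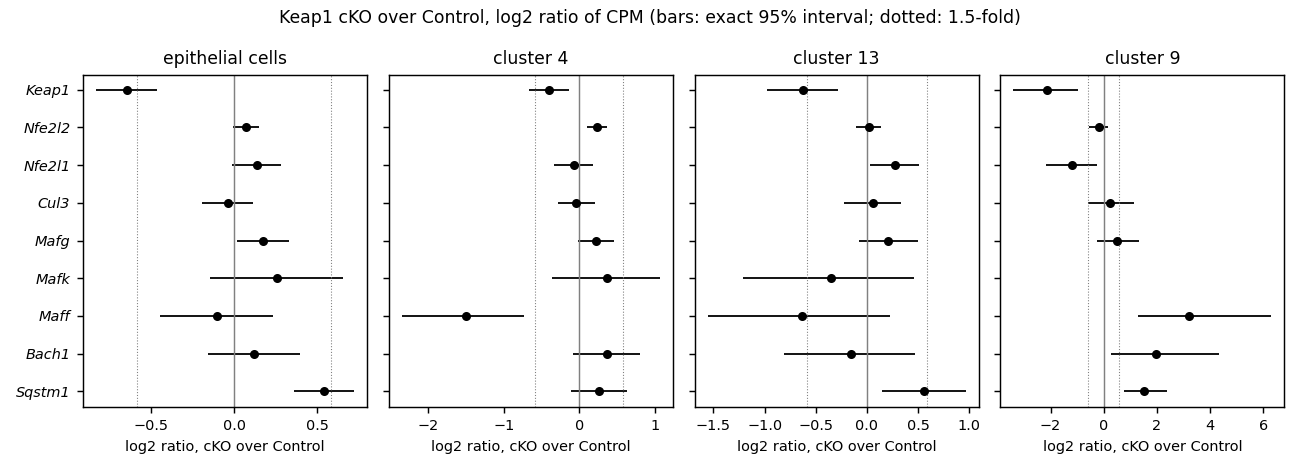
Log2 ratio of CPM, Keap1 cKO over Control, for the 9 genes over all epithelial cells and in clusters 4, 13 and 9; points are ratios, bars exact 95% intervals for counting error, and dotted lines mark 1.5-fold. Keap1 lies left of 0 in all 4 panels, Sqstm1 lies right of 0 in all 4, and Maff lies at -1.49 in cluster 4 and 3.22 in cluster 9 (Mafk has under 20 UMIs in cluster 9 and is not drawn).

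Keap1 (chromosome 9, 21229730 to 21239361, minus strand, mm10) was the gene the Cre acts on, and its epithelial level stood at 44.5 CPM in Keap1 cKO cells and 69.8 CPM in Control cells, log2 -0.65. A 3′ tag may come from a part of the transcript outside the deleted exons, so the UMIs that remain do not by themselves measure how many cells kept the gene. Basal cluster 4 held 151 Keap1 UMIs, 57.8 CPM (48.9 to 67.8), in the Keap1 cKO library and 495 UMIs, 76.2 CPM (69.6 to 83.2), in the Control library, so these intervals did not overlap. Suprabasal cluster 13 stood at 39.7 CPM in the Keap1 cKO library and 61.1 CPM in the Control library. The keratin 5 gene Krt5 differed there too, at 4080 CPM in Keap1 cKO cells and 1721 CPM in Control cells, log2 1.25 (1.20 to 1.29). The part of this basal content in the ratios of cluster 13 was not tested. The cornified cluster 9 had 10 Keap1 UMIs in 9 of 140 Keap1 cKO cells and 20 UMIs in 15 of 114 Control cells, or 10.2 (4.91 to 18.8) and 45.1 (27.5 to 69.6) CPM. Among Keap1 cKO clusters of at least 50 cells, only red blood cells had less Keap1 than cluster 9. The low-RNA epithelial cluster 10 had only 2 UMIs in the Keap1 cKO library and 21 in the Control library, and its ratio of -1.28 had an interval from -4.42 to 0.75.

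Keap1 was lower in Keap1 cKO cells in each of 3 ranges of cell depth, with an interval off 0 in the upper pair. In epithelial cells with at least 500 and under 3000 UMIs, Keap1 stood at 26.0 CPM (6 UMIs) in the Keap1 cKO library and 59.5 CPM (19 UMIs) in the Control library, with an interval of the log2 ratio from -2.81 to 0.19. In cells with at least 3000 and under 15000 UMIs it stood at 24.1 and 71.8 CPM in the Keap1 cKO and Control libraries, log2 -1.58 (-2.55 to -0.71), and in cells with at least 15000 UMIs at 46.8 and 69.9 CPM, log2 -0.58 (-0.77 to -0.39). The Control level changed little over the 3 ranges, while the Keap1 cKO level was higher in the deepest cells than in the shallower ones. The ranges hold different clusters: of the 185 shallowest Keap1 cKO cells, 80 were from cluster 9 and 79 from cluster 10, while 56 of the 164 deepest were from cluster 4 and 50 from cluster 13. At 1 common depth of 700 UMIs per cell, Keap1 was seen in 9 of 385 Keap1 cKO cells, 2.34% (1.07 to 4.39), and in 36 of 771 Control cells, 4.67% (3.29 to 6.41), with 37 and 77 shallower cells left out. Averaged over all possible draws the shares were 2.09% in Keap1 cKO cells and 4.57% in Control cells. The intervals of the single draw overlap, which does not decide whether the shares differ, and that difference was not tested. Unthinned, 32.7% of Keap1 cKO and 53.5% of Control epithelial cells had a Keap1 UMI, at the median depths above. In red blood cells (cluster 7, median 10271.5 UMIs in the Keap1 cKO library and 10831 in the Control library), 1.67% and 2.25% of cells had one.

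**Figure D2:**
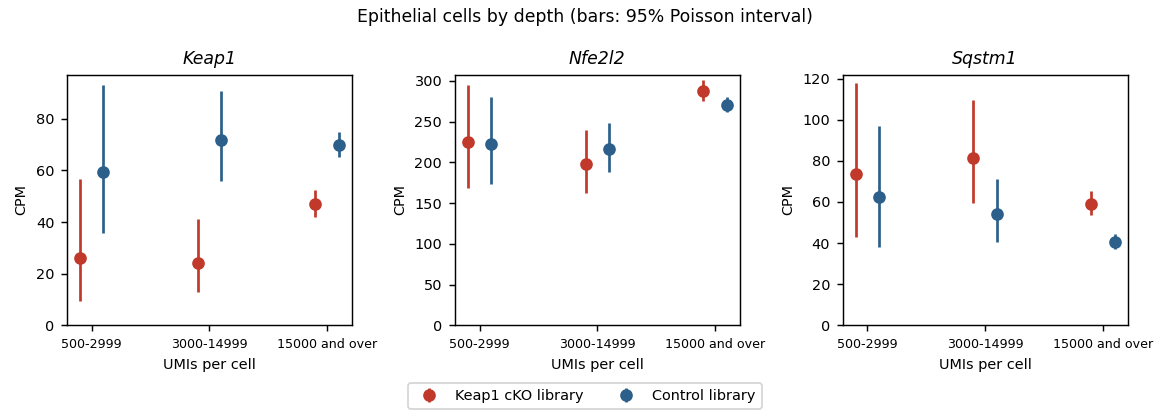
CPM of Keap1, Nfe2l2 and Sqstm1 in epithelial cells of 3 depth ranges (UMIs per cell on the x axis), with 95% Poisson intervals. Keap1 is lower in the Keap1 cKO library in every range, the Nfe2l2 intervals of the libraries overlap in every range, and Sqstm1 stands at 59.3 CPM in Keap1 cKO cells and 40.7 CPM in Control cells of the deepest range.

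Keap1 differed in some clusters outside the epithelium as well. Over 11 clusters with a ratio, Keap1 lay below 0 in 9 and its interval lay wholly below 0 in 5, namely clusters 3, 4, 5, 9 and 13. With median-of-ratios scaling the value of cluster 1 changed sign, to 0.017. T cell cluster 3 had 130 Keap1 UMIs (40.4 CPM) from Keap1 cKO cells and 28 (87.4 CPM) from Control cells. Krt5 marks the cells in which the Cre is expected: it stood at 4478 CPM in Keap1 cKO cells and 4689 CPM in Control cells of cluster 4, against 83.6 and 109 CPM in cluster 3. Red blood cells, which make no keratin, had 44.6 CPM of Krt5 in the Keap1 cKO library and 73.1 CPM in the Control library. In the Keap1 cKO library, clusters of at least 50 cells ran from 60.3 CPM in cluster 6, 59.9 in endothelial cluster 8 and 57.8 in cluster 4 to 24.9 in cluster 10 and 10.2 in cluster 9, and each overlapped the next. Within the Control library the order of Keap1 levels over clusters of at least 50 cells ran from 89.7 CPM in epithelial cluster 15 and 87.4 in T cell cluster 3 through 76.2 in cluster 4 to 45.1 in cluster 9, 37.3 in T cell cluster 11 and 30.4 in cluster 6. Each neighbour in that order overlapped the next in its interval down to cluster 6, and only red blood cells, at 2.09 CPM, stood apart.

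Nfe2l2 (chromosome 2, 75675513 to 75704641, minus strand) encodes NRF2 itself and was abundant in keratinocytes of both libraries. In the Keap1 cKO library suprabasal cluster 13 stood at 364 CPM (881 UMIs), below only the 461 CPM (86 UMIs) of the 56 cells of cluster 17, which carry neutrophil genes, and the intervals of that pair overlapped. In the Control library cluster 13 was highest at 360 CPM (1513 UMIs), and its interval did not reach that of the next cluster. T cell cluster 3 was lowest outside red blood cells in both libraries, at 36.7 CPM (118 UMIs) in the Keap1 cKO library and 28.1 CPM (9 UMIs) in the Control library. Between libraries Nfe2l2 differed little in keratinocytes: the log2 ratio was 0.02 (-0.11 to 0.14) in cluster 13, -0.19 (-0.55 to 0.18) in cluster 9 and 0.23 (0.10 to 0.36) in basal cluster 4, where it stood at 272 CPM in Keap1 cKO cells and 232 CPM in Control cells. Fibroblasts of the Keap1 cKO library had less Nfe2l2. Cluster 1 had 378 UMIs (132 CPM) in the Keap1 cKO library and 1510 UMIs (228 CPM) in the Control library, log2 -0.78 (-0.95 to -0.62), and cluster 5 had 148 and 254 CPM, log2 -0.78 (-0.96 to -0.60). Neither pair of levels overlapped in its intervals, and the fibroblast genes of these clusters were themselves higher in the Keap1 cKO library, with a summed level of 5 markers of 38557 and 27046 CPM in the Keap1 cKO and Control cells of cluster 1. Its part in the Nfe2l2 ratio was not tested.

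Nfe2l1 (chromosome 11, 96817414 to 96829968, minus strand), the gene of NRF1, had another order of cell types. Among clusters of at least 50 cells it was highest in endothelial cluster 8, at 279 CPM (786 UMIs) in the Keap1 cKO library and 199 CPM (106 UMIs) in the Control library, followed in both by fibroblast clusters 5 and 1. The 2 endothelial levels gave a log2 ratio of 0.49 (0.19 to 0.79). Fibroblast clusters 1 and 5 were higher in the Keap1 cKO library too, at 173 and 195 CPM against 127 and 144 CPM, log2 0.45 (0.29 to 0.61) and 0.44 (0.25 to 0.62). Nfe2l1 and Nfe2l2, sister genes, therefore differed in opposite directions in the same fibroblasts. Nfe2l1 lay above 0 in 9 of 11 clusters, with its interval above 0 in 4, and its ratio lay below 0 in clusters 4 and 9; with median-of-ratios scaling cluster 2 lay below 0 too, at -0.071. In cluster 9 it had 20 UMIs (20.5 CPM) in Keap1 cKO cells and 21 UMIs (47.4 CPM) in Control cells, log2 -1.21 (-2.17 to -0.25). Over cells with at least 3000 UMIs the interval covered 0, at -0.99 (-2.08 to 0.13).

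Cul3 (chromosome 1, 80264923 to 80340480, minus strand) is the scaffold of the ligase. Its levels outside red blood cells ran from 45.1 to 113 CPM over the clusters of the Keap1 cKO library with at least 50 cells and from 38.3 to 93.5 CPM over those of the Control library. Neighbours in this order overlapped in their intervals in both libraries until red blood cells. Alone among the 9 genes, Cul3 had no ratio whose interval lay off 0 in any of the 11 clusters, and in all epithelial cells the ratio was -0.04 (-0.20 to 0.11). That interval reaches neither 1.5-fold line.

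The small Maf genes encode the DNA-binding partners that NRF2, NRF1 and BACH1 share, and they lack an activation domain of their own. Mafg (chromosome 11, 120625117 to 120633600, minus strand) stood at 82.7 CPM (216 UMIs) in Keap1 cKO cells and 70.7 CPM (459 UMIs) in Control cells of cluster 4, log2 0.23 (-0.01 to 0.46). In T cell cluster 11 it had 73 UMIs (61.8 CPM) in the Keap1 cKO library and 8 UMIs (23.0 CPM) in the Control library, log2 1.43 (0.37 to 2.69). In the shallow cluster 6 it had 3 UMIs (20.1 CPM) in the Keap1 cKO library and 31 UMIs (67.4 CPM) in the Control library, log2 -1.74 (-4.10 to -0.06). Both ratios rest on under 10 UMIs in 1 library, and the same 2 clusters also differed in other content: erythroid markers of cluster 11 summed to 954 CPM in the Keap1 cKO library and 47382 CPM in the Control library, and Krt5 of cluster 6 stood at 80.4 and 935 CPM. The part of these genes in the Mafg ratios was not tested. Mafg also overlaps Sirt7 on the same strand, and reads of the pair cannot be told apart where they overlap.

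Mafk (chromosome 5, 139791513 to 139802653, plus strand) was higher outside the epithelium. Fibroblast cluster 1 had 82 UMIs (28.7 CPM) in the Keap1 cKO library and 91 UMIs (13.7 CPM) in the Control library, log2 1.07 (0.62 to 1.51). Cluster 5 stood at 31.4 and 14.8 CPM in the Keap1 cKO and Control libraries, log2 1.09 (0.56 to 1.62), and endothelial cluster 8 at 40.1 CPM (113 UMIs) and 13.1 CPM (7 UMIs), log2 1.61 (0.52 to 2.95). In none of these 3 clusters did the level intervals of the libraries overlap. Over the 8 clusters with a ratio, Mafk lay above 0 in 7. In epithelial cells it was low in both libraries, at 11.8 CPM (88 UMIs) and 9.88 CPM (136 UMIs) in the Keap1 cKO and Control libraries, log2 0.26 (-0.15 to 0.65).

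Maff (chromosome 15, 79346621 to 79359076, plus strand) differed in opposite directions within the epithelium. In basal cluster 4 it had 16 UMIs in 14 of 93 Keap1 cKO cells, 6.12 CPM, and 112 UMIs in 95 of 313 Control cells, 17.2 CPM, log2 -1.49 (-2.35 to -0.73). In cornified cluster 9 it had 41 UMIs in 11 of 140 Keap1 cKO cells, 42.0 CPM, and 2 UMIs in 1 of 114 Control cells, 4.51 CPM, log2 3.22 (1.27 to 6.31). A single Keap1 cKO cell held 19 of the 41 UMIs, and without that cell alone the ratio was 2.37 (0.35 to 5.50). Over all epithelial cells the ratio was -0.10 (-0.45 to 0.24), and its sign depended on how the cells were combined. It was 0.63 as a mean over cells, 0.78 with clusters 4, 9 and 13 weighted equally, 0.56 without the deepest cells and -0.61 without cluster 9. Fibroblasts expressed Maff at like levels, 34.3 and 32.3 CPM in cluster 1 and 28.3 and 36.4 CPM in cluster 5 of the Keap1 cKO and Control libraries. The highest level of the Keap1 cKO library was in cluster 17, at 102 CPM (19 UMIs).

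Bach1 (chromosome 16, 87698945 to 87733346, plus strand), the repressor of the group, was highest in myeloid cluster 2 in both libraries among clusters of at least 50 cells. There it had 454 UMIs (187 CPM) in the Keap1 cKO library and 179 UMIs (101 CPM) in the Control library, log2 0.90 (0.64 to 1.15), and the level intervals did not overlap. In the Control library cluster 2 stood apart from endothelial cluster 8, next in order at 58.2 CPM. Summed lymphatic markers of cluster 2 were 299 CPM in the Keap1 cKO library and 1148 CPM in the Control library and summed neutrophil markers were 350.5 and 4.50 CPM, and their part in the Bach1 ratio was not tested. In epithelial cluster 9 Bach1 had 26 UMIs (26.6 CPM) in the Keap1 cKO library and 3 UMIs (6.76 CPM) in the Control library, log2 1.98 (0.27 to 4.35). Without the single Keap1 cKO cell that held 7 of the 26 Bach1 UMIs, that interval reached 0, at 1.62 (-0.15 to 4.02). In clusters 4 and 13 its ratios were 0.37 (-0.08 to 0.81) and -0.16 (-0.81 to 0.47).

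Sqstm1 (chromosome 11, 50199366 to 50210827, minus strand), the autophagy receptor p62, lay above 0 in 9 of 10 clusters, and its interval lay above 0 in 4. In cluster 9 it had 101 UMIs in 40 of 140 Keap1 cKO cells, 104 CPM, and 16 UMIs in 11 of 114 Control cells, 36.1 CPM, log2 1.52 (0.75 to 2.38). Suprabasal cluster 13 stood at 38.8 CPM (94 UMIs) and 26.4 CPM (111 UMIs), log2 0.56 (0.14 to 0.97). In cluster 4 the ratio was 0.26 (-0.11 to 0.62). In the Keap1 cKO library the 104 CPM of cluster 9 overlapped the 114 of fibroblast cluster 5 and the 111 of myeloid cluster 2 in their intervals, while cluster 4 stood lower at 35.6. In the Control library cluster 9 stood with the other keratinocytes, at 36.1 CPM beside 29.7 in cluster 4 and below the 114 of fibroblast cluster 1. The fibroblast ratios of Sqstm1 were small, 0.19 (0.01 to 0.37) in cluster 1 and 0.26 (0.02 to 0.49) in cluster 5. Cluster 14, an epithelial cluster with 40 and 42 cells, ran the other way at 146 CPM in Keap1 cKO cells and 302 CPM in Control cells. There 83 of its 199 Control UMIs came from 1 cell, and 29 of its 155 Keap1 cKO UMIs from another. Without these cells the Control level of cluster 14 was still the higher.

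**Figure D3:**
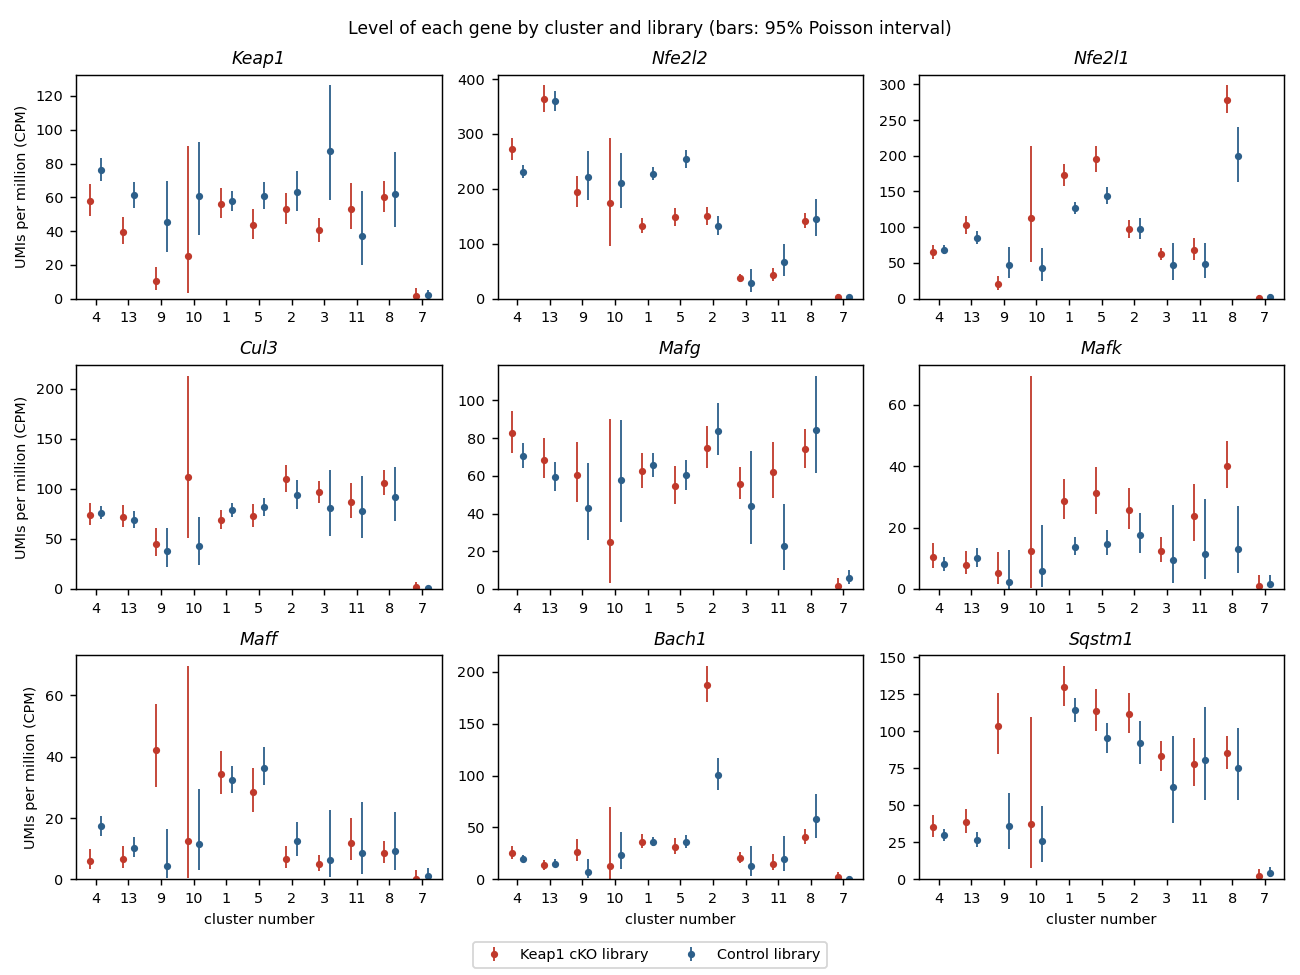
CPM of each gene (y axis) in 11 clusters (x axis: epithelial 4, 13, 9 and 10, fibroblast 1 and 5, myeloid 2, T cell 3 and 11, endothelial 8, red blood cell 7), with 95% Poisson intervals. Nfe2l2 peaks in cluster 13 in both libraries (364 CPM in the Keap1 cKO library, 360 CPM in the Control library), Nfe2l1 in cluster 8, Bach1 in cluster 2, and the Cul3 intervals of the libraries overlap in each cluster drawn.

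Cluster by cluster, the number of the 9 genes past 1.5-fold is set beside the share of all genes past it. In cluster 4, 1 of 9 was lower (Maff) and 0 higher, against 18.2% and 18.9% of all genes. In cluster 13, 2 of 9 were lower (Keap1 and Maff) and 0 higher, against 15.4% and 14.3%, and the Maff interval covered 0 (-1.56 to 0.23). Cluster 9 had the most among clusters with 8 or more of the genes measured: 3 of 8 higher (Maff, Bach1 and Sqstm1) and 2 lower (Keap1 and Nfe2l1), against 19.8% and 30.2% of all genes. In cluster 10, with 5 genes measured, Nfe2l1 and Cul3 were higher and Keap1 and Mafg lower, against 26.3% and 21.9%, and none of the 4 intervals lay off 0.

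In fibroblast cluster 1, Mafk was higher and Nfe2l2 lower of 9 measured, against 13.9% and 16.1% of all genes. In fibroblast cluster 5 the same genes lay past 1.5-fold in the same directions, against 13.2% and 18.2%. The shallow cluster 6, with median depths of 772 UMIs in the Keap1 cKO library and 1207 UMIs in the Control library, had 3 of 7 higher and 2 lower, against 13.7% and 25.5%, and of those 5 only the Mafg interval lay off 0. Myeloid cluster 2 had Bach1 higher and Maff lower of 9, against 15.8% and 10.9%, and the Maff interval covered 0 (-1.93 to 0.09). T cell cluster 3 had Bach1 higher and Keap1 lower of 8, against 21.6% and 14.5%, and the Bach1 interval covered 0 (-0.69 to 2.65). T cell cluster 11 had Mafg and Mafk higher and Nfe2l2 lower of 8, against 23.2% and 9.34%. There the intervals of Mafk (-0.47 to 3.02) and Nfe2l2 (-1.38 to 0.14) covered 0. Endothelial cluster 8 had Mafk higher and none lower of 9, against 26.1% and 9.84%. With at most 3 genes past the fold in a direction, these counts say nothing about the 9 genes as a group beyond the values given for each.

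**Figure D4:**
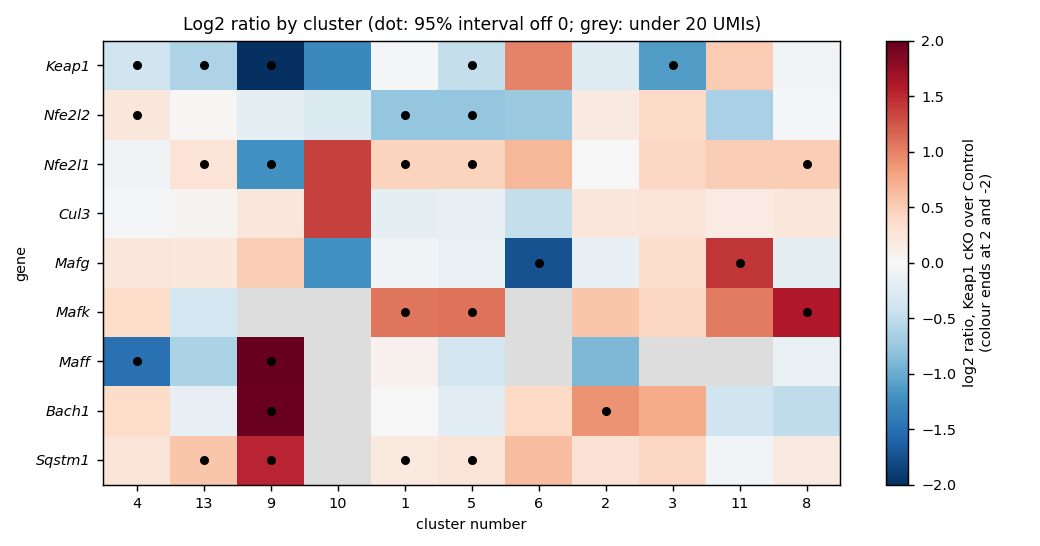
Log2 ratio, Keap1 cKO over Control, of each gene (rows) in 11 clusters (columns, epithelial clusters 4, 13, 9 and 10 first); red is higher and blue lower in the Keap1 cKO library, grey is under 20 UMIs, and a dot marks a 95% counting interval off 0. Dots fall in the Keap1 row at clusters 4, 13, 9, 5 and 3, in the Sqstm1 row at 13, 9, 1 and 5, and nowhere in the Cul3 row.

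The ratios of cluster 9 stand beside a large difference in what its cells held. Summed suprabasal and cornified markers were 27675 CPM in Keap1 cKO cells and 96128 CPM in Control cells, summed basal markers were 4425 and 2426 CPM, and median depths were 2456.5 and 1441.5 UMIs. T cell markers summed to 188 and 6.76 CPM, with Cd3e, Cd3d and Cd3g at 0 in the Control cells. The part of these differences in the cluster 9 ratios was not tested. One Control cell of 89798 UMIs held 20.2% of all Control UMIs of the cluster. Without the deepest cell of each library, Keap1 stood at -2.37 (-3.71 to -1.14), Sqstm1 at 1.28 (0.46 to 2.21), Maff at 2.99 (1.04 to 6.08), Nfe2l1 at -1.28 (-2.36 to -0.20) and Bach1 at 1.88 (-0.17 to 5.02).

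Keap1 cKO cells of one cluster differed in how much of their RNA came from NRF2 target genes. For each epithelial cell, the share of UMIs from 33 known NRF2 target genes, with none of the 9 genes among them, was computed, and Keap1 cKO cells above the 95th percentile of the Control cells of their cluster were set against the rest. The split is a range on a per-cell score and not a cell type, and in cluster 4 30 of the 93 Keap1 cKO cells lay within 20% of the threshold of 0.814%. Cluster 4 had 25 cells above and 68 below, with median depths of 4983 and 32833.5 UMIs. Cluster 9 had 72 above its threshold of 1.99% and 68 below, with medians of 3310 and 1872 UMIs. In cluster 13 only 3 of 61 cells lay above, which is too few to describe.

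Mafg and Sqstm1 were higher in the cells above the threshold in both clusters. In cluster 4, Mafg stood at 152 CPM (65 UMIs) in the cells above and 69.1 CPM (151 UMIs) in the other Keap1 cKO cells, log2 1.13 (0.69 to 1.56), with 70.7 CPM in Control cells. Sqstm1 stood at 67.7 and 29.3 CPM in the same cells, log2 1.21 (0.52 to 1.86), with 29.7 CPM in Control cells. Both genes were within 2 CPM of the Control level in the remaining Keap1 cKO cells of the cluster. In cluster 9, Mafg stood at 73.9 CPM (55 UMIs) above and 17.2 CPM (4 UMIs) in the other cells, log2 2.10 (0.66 to 4.03), with 42.8 CPM in Control cells. Sqstm1 stood at 120 CPM (89 UMIs) and 51.7 CPM (12 UMIs) in the same cells, log2 1.21 (0.33 to 2.22), with 36.1 CPM in Control cells. Of the 41 Maff UMIs of cluster 9, 40 were in cells above the threshold, log2 3.64 (1.08 to 8.98), and a single cell held 19 of them. Of the 26 Bach1 UMIs 24 were in such cells, but the interval covered 0, log2 1.90 (-0.11 to 5.03).

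Nfe2l2 went the other way. It stood at 201 CPM above and 286 CPM in the other Keap1 cKO cells of cluster 4, log2 -0.51 (-0.85 to -0.18), and at 144 and 353 CPM in cluster 9, log2 -1.30 (-1.73 to -0.86), beside 232 and 221 CPM in the Control cells of these clusters. For Keap1 the interval covered 0: it stood at 56.0 CPM (24 UMIs) above and 58.1 CPM (127 UMIs) in the others in cluster 4, log2 -0.05 (-0.75 to 0.58). In cluster 9 only 9 and 1 Keap1 UMIs were present. The cells above the threshold differed from the others in depth, as given above, and in Krt5, which stood at 3856 and 4599 CPM in cluster 4 and 374 and 866 CPM in cluster 9. The part of depth and of basal content in these differences was not tested.

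**Figure D5:**
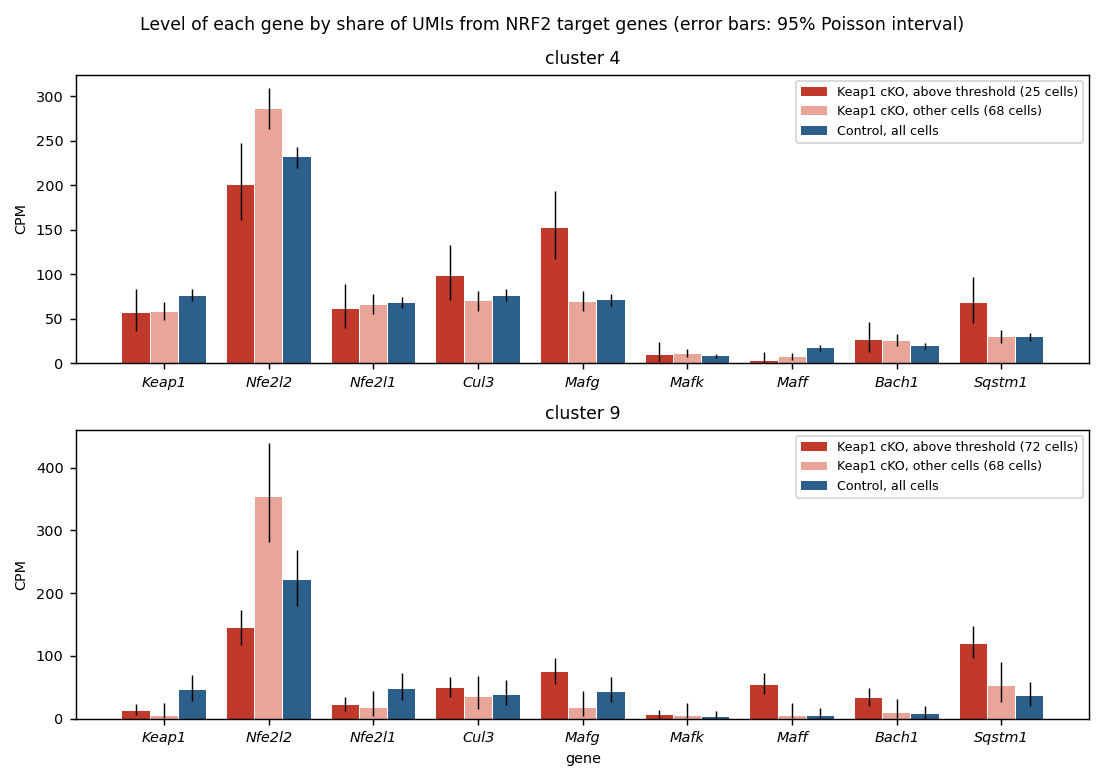
CPM of each gene in Keap1 cKO cells above the Control 95th percentile of NRF2 target share, in the other Keap1 cKO cells and in all Control cells, for clusters 4 and 9; error bars are 95% Poisson intervals. Mafg and Sqstm1 are highest in the cells above (152 and 67.7 CPM in cluster 4), and Nfe2l2 is lowest there (201 CPM in cluster 4, 144 CPM in cluster 9).

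The wider pathway in epithelial cells was read from lists that hold none of the 9 genes. Of 33 measured NRF2 targets, 27 were at least 1.5-fold higher and 0 lower, with a median log2 ratio of 1.16 against -0.02 over all genes. The counts of this and the next lists in epithelial cells stand beside 17.5% of all genes higher and 15.8% lower, and those in cluster 9 beside 19.8% and 30.2% and a median over all genes of -0.15. The cystine transporter Slc7a11 had 817 UMIs in Keap1 cKO cells and 22 in Control cells, log2 6.10 (5.49 to 6.78), and the sulfiredoxin Srxn1 had a ratio of 3.91, while the abundant thioredoxin Txn1 and glutathione transferase Gsta4 had ratios of 0.32 and 0.61. In cluster 4 the targets had a median of 1.16, with 25 of 32 higher and 0 lower, against 18.9% and 18.2% of all genes. In suprabasal cluster 13, where Keap1 had a ratio of -0.62, the median was -0.01. There 10 of 31 targets were higher and 8 lower, against 14.3% and 15.4% of all genes. In cluster 9 the median was 2.52 and 24 of 31 were higher with 1 lower. In fibroblast clusters 1 and 5, where Nfe2l2 was lower, the targets had medians of -0.21 and -0.12, beside -0.05 and -0.09 over all genes. In cluster 1, 3 of 28 targets were higher and 8 lower, against 13.9% and 16.1% of all genes. In cluster 5, 2 of 27 were higher and 8 lower, against 13.2% and 18.2%.

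Of 21 genes listed for NRF2 degradation and its ligase machinery, 2 were at least 1.5-fold higher and 3 lower in epithelial cells. Their median was 0.02 against -0.02 over all genes. The higher genes were Dpp3 (0.66) and Palb2 (1.08), and the lower ones Amer1 (-0.95), Sesn1 and Usp11. None of these is a ligase subunit, so the counts do not describe the ligase itself. The RING subunit Rbx1 had a ratio of 0.01 (-0.07 to 0.08) and the CUL3 modifier Nedd8 one of 0.02 (-0.06 to 0.10). Sesn1, a stress-inducible sestrin, had 151 UMIs in Keap1 cKO cells and 783 in Control cells, log2 -1.49. The deubiquitinase Usp11 had 0 UMIs in Keap1 cKO cells, against 24 UMIs or 1.74 CPM in Control cells. To count its fold, that 0 was set to a floor of 3 counts, or 0.403 CPM. Of 14 measured CNC, MAF and AP-1 factors and coactivators, 3 were higher and 1 lower, with a median of 0.15. Nfe2l3, the third NRF family gene, had 64 UMIs in Keap1 cKO cells and 37 in Control cells, log2 1.68 (1.07 to 2.30), and the AP-1 gene Fosl1 had 28 and 17 UMIs, log2 1.61 (0.69 to 2.57). The abundant AP-1 genes Jun and Jund had ratios of -0.11 and 0.21.

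Of 9 genes listed for NRF1 processing, 1 was higher and 0 lower, with a median of 0.18. The higher one was Nfe2l3, which encodes a sister transcription factor and no processing factor, and none of the other 8 was past 1.5-fold. The extraction ATPase Vcp stood at 0.54 (0.47 to 0.62) and the glycosyltransferase Ogt at -0.41. Of 28 proteasome genes, the known targets of NRF1, 3 were higher and 0 lower with a median of 0.26. Psmc1 had the ratio farthest from 0, 0.79, and of the 2 with most UMIs Psma7 stood at 0.64 and Psmb1 at -0.25. In cluster 9, where Nfe2l1 itself was lower, 8 of 28 proteasome genes were higher, with a median of 0.45 against -0.15 over all genes. In fibroblast clusters 1 and 5, where Nfe2l1 was higher, the proteasome medians were -0.33 and -0.29, against -0.05 and -0.09 over all genes. Of the 28, 1 was higher and 3 lower in cluster 1, against 13.9% and 16.1% of all genes. In cluster 5, 0 were higher and 3 lower, against 13.2% and 18.2%.

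Of 18 autophagy partners of p62, 1 was higher and 1 lower in epithelial cells, with a median of -0.11. The receptor Optn had only 22 UMIs in Keap1 cKO cells and 13 in Control cells, log2 1.64, the receptor Tax1bp1 stood at -0.59 (-0.68 to -0.49), and the abundant ubiquitin-like genes Map1lc3b and Gabarap stood at -0.32 and 0.23. In cluster 9, where Sqstm1 was higher, 4 of 10 partners were higher and 1 lower, with a median of 0.42 against -0.15 over all genes, where 19.8% were higher and 30.2% lower. Of 5 measured BACH1 targets, 2 were higher and 0 lower in epithelial cells: heme oxygenase Hmox1 at 3.12 (2.77 to 3.47) and biliverdin reductase Blvrb at 1.98. Both are also on the list of NRF2 targets used above. The ferritin genes Fth1 and Ftl1 stood at 0.03 and 0.27, and their absence from that list does not mean that NRF2 leaves them alone. In cluster 9, 4 of 5 were higher, with a median of 2.46, beside the higher Bach1.

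Each gene was last set against all 9510 genes with at least 500 UMIs for likeness over 27 cluster and library profiles of at least 50 cells, as Pearson r of log2(CPM + 10). The profiles share libraries, depth and 1 pair of red blood cell profiles in which nearly all genes are low, so r is also given without that pair, over 25 profiles. Nfe2l1 was closest to Atl3, a shaper of the endoplasmic reticulum (r = 0.95, 0.90 without red blood cells), then Lrrc58 and Foxp1. Bach1 was closest to Zfp608 (0.90, 0.90 without), then Sdcbp and the stress factor Atf3 (0.89, 0.89). Sqstm1 was closest to Zfand3 (0.93, 0.89), then Gabarap, a ubiquitin-like autophagy gene (0.92, 0.83), and the ubiquitin-conjugating enzyme Ube2j1. Without red blood cells, r with the closest gene changed little for these 3 genes, as it did for Mafk and Maff below. The r of Sqstm1 with Gabarap fell further.

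Cul3 was closest to the splicing gene Ik (0.97, 0.76 without red blood cells), Pum2 and Scaf11, and Keap1 to Apopt1 (0.92, 0.77), Bcap31 and Setd3, and both rest in part on that pair of low profiles. Mafg was closest to Kcmf1 (0.92, 0.76), Use1 and Unc50. Nfe2l2 was closest to the actin regulator Dstn (0.91, 0.82), Nab1 and Mrpl17. Mafk was closest to Mtmr3 (0.87, 0.84), Pofut2 and Rybp, and Maff to Bnip3 (0.82, 0.79), Vegfa and Dusp16. Between the 9 genes themselves, Keap1 and Nfe2l2 had r = 0.53 with red blood cells and -0.14 without them, while Mafk and Sqstm1 had 0.73 and 0.64.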

How the data were processed

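Expression was measured per cell in 1 library per genotype. The authors deposited natural log values: in every cell, the exponential minus 1 summed to 10000. Submitters' processing notes name mm10, Seurat 4.0.2, R 4.1.1 and Cell Ranger 6.0.1, while the counting annotation and strand setting were not found in the labels. UMI counts were recovered from each cell's smallest step, and all positive values (100%) were whole to within 0.01 of a UMI. The authors' cluster numbers and cell types were used as deposited for all 4853 cells. No cell was removed and no doublet caller was run. Counts were summed per cluster and library with Python 3.11.15, numpy 2.4.6, scipy 1.17.1 and pandas 2.3.3, and the ratio code was tested on simulated data.

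With 1 library per genotype no test was made. The 9 genes, the gene lists and the naming rule were chosen with earlier results of these data known. The rule named the 9 genes, Krt5, for each list the 2 genes with most UMIs and the 2 with the largest absolute log2 ratio in epithelial cells, and for each of the 9 genes the 3 most alike. Marker genes given beside a result, and Dpp3, Palb2 and Amer1, were named after their values were seen. Alternatives changed scaling, weighting of cells and clusters, deep cells, depth, fold and thinning. Locations are from GENCODE vM21. Mafg overlaps Sirt7 on its strand; Mafk, Sqstm1 and Keap1 overlap Tmem184a, Mrnip and Gm16754 on the opposite strand, so shared reads are uncertain.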

Additional observations from a re-analysis of the deposited data

Results flagged for a closer look

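For 2 genes, the log2 ratio of Keap1 cKO over Control lay beyond 1.5-fold in opposite directions in different clusters, each with a counting interval off 0. For Maff, the ratio was 3.22 in epithelial cluster 9 and -1.49 in epithelial cluster 4, a difference of 4.71. For Mafg, it was 1.43 in T cell cluster 11 and -1.74 in cluster 6, a difference of 3.17. With 1 library per genotype, neither difference between clusters was tested.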

How the results depend on the processing

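Of 204 alternative values, 178 stayed close to the value reported (a ratio or share within its counting interval, a count of genes within 1.5 times) and 26 moved. No ratio past 1.5-fold with an interval off 0 changed sign. Smaller epithelial ratios did for Nfe2l2, Nfe2l1, Cul3, Mafg, Mafk, Maff and Bach1 under at least 1 alternative, among them Cul3 (0.099 as a mean over cells) and Mafk (-0.021 without clusters 10 and 14). Another scaling moved none of 90 cluster ratios out of its interval, though Keap1 in cluster 1 (0.017) and Nfe2l1 in cluster 2 (-0.071) changed sign. With each epithelial cell weighing the same, log2 ratios were -1.14 for Keap1, -0.051 for Nfe2l2, 0.32 for Nfe2l1, -0.12 for Mafg, 0.63 for Maff and -0.40 for Bach1. With clusters 4, 9 and 13 weighted equally, they were -0.094 for Nfe2l1, 0.78 for Maff, 0.66 for Bach1 and 0.95 for Sqstm1. Without cells above the 98th percentile of UMIs, which removed 47 of 422 Keap1 cKO and 45 of 848 Control epithelial cells, they were -0.86 for Keap1, -0.20 for Cul3, -0.014 for Mafg, 0.56 for Maff and 0.99 for Sqstm1. Without cluster 9, Maff was -0.61, and Keap1, at -0.51, was no longer past 1.5-fold. The cause of these moves was not tested. At 2-fold, 1343 genes were higher and 868 lower in epithelial cells, against 2217 and 1991 at 1.5-fold, 1629 and 1566 with at least 50 UMIs, and 3287 and 2618 with at least 1 UMI in each library and no other filter. Thinned to 1500 UMIs, 6.85% of Keap1 cKO and 10.6% of Control epithelial cells had a Keap1 UMI, and 28.8% and 29.2% an Nfe2l2 UMI; unthinned, 32.7% and 53.5%, and 57.3% and 72.3%. Leaving out cluster 9 or 15, the expected share over draws and the changes to the cells of cluster 9 were chosen after seeing the data. No paired analysis was possible because there was 1 library per genotype. Low counts limit Mafk, Maff and Bach1 most in clusters 9, 10 and 6.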

Other observations

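Clusters below 50 cells in 1 library had no ratio and are given as levels. Cluster 12, annotated as B cells by the authors, had 139 CPM of Nfe2l2 (159 UMIs) in its 178 Keap1 cKO cells and 105 CPM (16 UMIs) in its 34 Control cells. Keap1 stood there at 52.5 CPM in Keap1 cKO cells and 85.0 CPM in Control cells, and Bach1 at 61.2 and 118 CPM. Epithelial cluster 15, with 7 Keap1 cKO cells and 75 Control cells, had Keap1 at 72.5 CPM (22 UMIs) in the Keap1 cKO cells and 89.7 CPM (145 UMIs) in the Control cells. In the 56 Keap1 cKO cells of cluster 17, which carry neutrophil genes, 4 genes stood at the highest level among clusters of at least 50 cells in that library. These were Mafk (75.1 CPM, 14 UMIs), Maff (102 CPM, 19 UMIs), Cul3 (113 CPM, 21 UMIs) and Nfe2l2 (461 CPM, 86 UMIs). Only for Maff did the interval stand apart from that of the next cluster. The Control library had 4 such cells, too few to compare.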
